A study of Homo sapiens with 15 samples.

Results

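This is a comparison of 2 drivers in the same melanoma line: the expression change that came with VAV1 set against the change that came with RAC1 P29S. For each gene the RAC1 P29S effect was subtracted from the VAV1 effect, so a difference above 0 means relatively higher expression with VAV1 and a difference below 0 relatively higher expression with RAC1 P29S. The comparison used 12 of the 15 libraries of the series. It covered 13810 of the 15703 genes listed in both experiments, those that reached a normalized count of 10 in 3 or more libraries of both experiments.

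All cells were A375, an established human melanoma line with mutant BRAF, and RNA was sequenced from 3 cultures per group, which the design text calls biological triplicates. In the first experiment the groups were empty-vector cells given vehicle and VAV1-overexpressing cells given vehicle. In the second, the groups were empty-vector cells and cells overexpressing RAC1 P29S, both without treatment. A further group, VAV1 cells given an SRC inhibitor, entered only the filter on low genes and the estimate of the spread. The driver and the experiment, with or without vehicle, cannot be told apart. The labels name no promoter for the transgenes, no dose, no time and no separate transductions, so a p-value here reflects only how much the cultures of a group varied. The titles of 3 samples give RAC1 P29S where their genotype entries give the empty vector, and the titles were used.

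VAV1 is a guanine nucleotide exchange factor, a protein that opens the nucleotide pocket of small GTPases such as RAC1 so that GTP can enter. It also carries adaptor domains that bind phosphorylated tyrosines, and it is normally made in blood cells. RAC1 P29S is a mutant found in melanoma that exchanges nucleotide fast by itself and so bypasses exchange factors. Active RAC1 binds PAK kinases and the WAVE complex and drives actin assembly, and actin assembly in turn frees MRTF coactivators to work with the transcription factor SRF.

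The driver genes were examined first. VAV1 was listed only in the first experiment, at log2 values of 1.90, 2.49 and 2.28 in the empty-vector libraries and 13.93, 13.86 and 13.94 in the VAV1 libraries. RAC1 (chromosome 7, 6374523 to 6403977, GRCh38, with the gene models of GENCODE release 29) stood at 3747, 3821 and 3756 normalized counts in untreated empty-vector cells and at 31670, 30380 and 31700 in the libraries titled RAC1 P29S. In the vehicle experiment it stood at 5095, 4719 and 4843 without VAV1 and at 5260, 5234 and 5456 with it. The RAC1 level therefore separated the groups as the titles do and not as the genotype field does. The log2 effect on RAC1 was 3.05 ± 0.04 (SE) for RAC1 P29S and 0.12 ± 0.04 for VAV1, and the values do not separate the transgene from the endogenous gene. Normalized counts summed to between 14443918 and 14896129 per library in the vehicle experiment and between 15762216 and 16262759 in the untreated one. Libraries of a group correlated with r of 0.985 to 0.988 across genes. Of the defining melanocytic markers, SOX10, MITF, S100B and PAX3 were expressed in all 4 groups, and MLANA, PMEL and TYRP1 averaged 38.0 normalized counts or less in each group. TYR and DCT were listed in the untreated experiment only, at 5.28 or less. CD3E, SPI1, EPCAM and KRT5 were not listed, PTPRC averaged 9.05 or less, and the summed fibroblast markers ranged from 115.2 to 396.8, mostly from PDGFRB and LUM.

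The changes that came with VAV1 and with RAC1 P29S were largely of the same direction. The gene lists named next hold only a small part of the genes that separated them. They were chosen with earlier results of these data known. Targets of the amino acid stress factor ATF4, genes of mitosis and genes of ribosome production lay relatively higher with VAV1. The controls lay further apart than the driver groups for 16 of 19 called genes of mitosis and all 13 of ribosome production. That held for 5 of the 20 called ATF4 targets. Genes of the actin cytoskeleton that SRF and MRTF control, matrix and integrin genes, and outputs of the MAPK pathway lay relatively higher with RAC1 P29S. The epidermal growth factor receptor ligand AREG rose with VAV1 and fell with RAC1 P29S, while the matrix genes MMP2 and FN1 did the reverse.

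Tested gene by gene with limma, at a Benjamini-Hochberg adjusted p under 0.05, 2188 of 13810 genes (15.8%) had unequal effects. Of these, 1124 (8.14% of the genes tested) lay above 0 and 1064 (7.7%) below, and 353 were more than 2-fold apart, 99 above and 254 below. The share of calls above 0 was 51.4%, and 41.1% with upper-quartile scaling. The VAV1 effect itself passed for 6187 genes (44.8%), 3353 higher (24.3%) and 2834 lower (20.5%). The RAC1 P29S effect passed for 4705 genes (34.1%), 2395 higher (17.3%) and 2310 lower (16.7%). Both effects passed with the same sign for 3114 genes, of which 1613 rose and 1501 fell, and the VAV1 effect was the larger for 1901 of them. Across the 13810 genes the effects had a Pearson correlation of 0.74 and a Spearman correlation of 0.58, which is a description across genes and not across samples. A gene past the threshold under 1 driver and not under the other often did not differ between them: 2882 genes passed for VAV1 and not for RAC1 P29S, and for 1957 of those the difference itself did not pass. The corresponding counts for RAC1 P29S were 1400 and 991.

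The 2188 genes were sorted by which effects passed. For 925 the VAV1 effect passed and the RAC1 P29S effect did not (576 rose and 349 fell with VAV1). For 409 the RAC1 P29S effect passed and the VAV1 effect did not (216 rose and 193 fell with RAC1 P29S). Both passed with the same sign and unequal size for 610, with the larger effect under VAV1 for 435 and under RAC1 P29S for 175. In 191 (1.38% of the genes tested) both passed with opposite signs, 117 higher with VAV1 and 74 higher with RAC1 P29S. In the remaining 53 neither effect passed by itself.

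**Figure D1:**
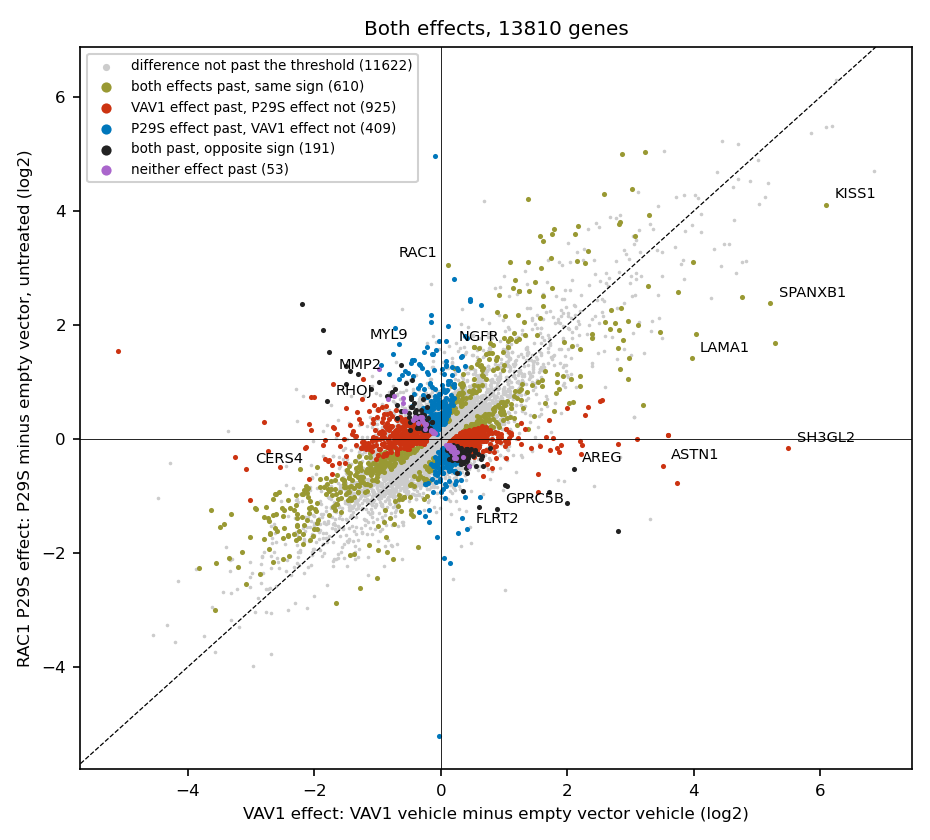
Each point is 1 of 13810 genes, with the VAV1 effect on the horizontal axis and the RAC1 P29S effect on the vertical axis (log2), coloured by which effects passed when the difference did. The cloud follows the dashed line of equal effects, 925 genes spread along the horizontal axis (SH3GL2, ASTN1, CERS4), 409 along the vertical axis (NGFR, MYL9, FLRT2), and 191 lie in the quadrants of opposite sign (AREG, GPRC5B, MMP2, RHOJ).

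The genes that moved in opposite directions included secreted signals and surface proteins. AREG (amphiregulin, a ligand of the epidermal growth factor receptor; chromosome 4, 74445134 to 74455009, plus strand) had the largest difference of this class among genes averaging at least 100 normalized counts in some group. The gap between its controls was -0.71 on the log2 scale and that between the driver groups 1.91. Its normalized counts were 42.4, 36.0 and 31.7 in vehicle controls and 182.7, 155 and 144.7 with VAV1. In untreated controls they were 73.1, 70.0 and 50.3, and with RAC1 P29S 43.3, 40.8 and 48.5. No library of a driver overlapped its own control, and the VAV1 libraries were the highest of all 12. The log2 effects were 2.10 ± 0.17 and -0.52 ± 0.17, and their difference was 2.62 ± 0.24 (limma adjusted p = 1.03e-06).

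The promoters of AREG and SH3GL2, the genes at that level with the largest differences in the opposite class and in the class with a VAV1 effect alone, are shown because both hold the same palindrome, the cAMP response element TGACGTCA, in capitals. Each stretch runs 5′ to 3′ from 250 bases before to 10 after the RefSeq start (GRCh38.p14): chr4:74444886-74445145 on the plus strand for AREG and chr9:17578816-17579075 on the plus strand for SH3GL2.
AREG: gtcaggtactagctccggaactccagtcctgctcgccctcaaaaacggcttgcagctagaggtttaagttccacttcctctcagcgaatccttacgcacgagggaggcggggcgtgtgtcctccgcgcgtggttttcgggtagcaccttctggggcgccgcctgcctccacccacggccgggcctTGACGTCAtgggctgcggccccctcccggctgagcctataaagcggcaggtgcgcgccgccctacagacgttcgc
SH3GL2: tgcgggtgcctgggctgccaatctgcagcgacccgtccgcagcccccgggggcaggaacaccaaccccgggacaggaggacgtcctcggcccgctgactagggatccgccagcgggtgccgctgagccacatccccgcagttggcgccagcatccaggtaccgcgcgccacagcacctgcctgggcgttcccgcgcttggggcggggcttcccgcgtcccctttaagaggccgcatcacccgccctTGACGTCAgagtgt
The element begins 65 bases before the start in AREG and 4 before it in SH3GL2. It was picked after these sequences were seen, and 345 of 10680 promoters of tested genes (3.23%), read from 250 bases before to 50 after the start, hold it. A match is a description of the sequence and not a bound site.

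SH3GL2 (endophilin A1, a membrane-bending protein of endocytosis) was nearly silent in vehicle controls at 7.43, 8.75 and 13.6 normalized counts. With VAV1 it reached 475.7, 484.3 and 476.2. In the untreated experiment it stood at 28.5, 29.4 and 30.2 in controls and at 32.1, 25.2 and 21.8 with RAC1 P29S, groups that overlap. The log2 effects were 5.50 ± 0.19 for VAV1 and -0.17 ± 0.19 for RAC1 P29S, a difference of 5.66 ± 0.27 (limma adjusted p = 7.47e-10).

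Other genes rose with VAV1 and fell with RAC1 P29S. BMP4, a secreted morphogen of the TGF-beta superfamily, went from 47.7, 47.2 and 60.8 to 94.7, 96.9 and 125.4 with VAV1, and from 51.6, 46.4 and 49.3 to 31.6, 30.1 and 22.3 with RAC1 P29S. Its controls were alike in both experiments, with a gap of 0.15 on the log2 scale, and its 2 driver groups were 1.96 apart. GPRC5B, an orphan G protein-coupled receptor, went the same ways with log2 effects of 0.89 ± 0.20 and -1.24 ± 0.20. PXDN, a peroxidase that crosslinks collagen IV, had effects of 0.61 and -1.20, the cancer-testis antigen MAGEA1 1.04 and -0.82, and FAM107B 0.34 and -0.92. For GPRC5B and PXDN the gap between the driver groups, 1.32 and 2.08, was larger than that between the controls, -0.80 and 0.27. For MAGEA1 and FAM107B the controls were further apart, by -1.12 and -0.73 against 0.74 and 0.53. PTGS2, the inducible cyclooxygenase, had effects of 1.72 and -0.94, but at 59.1 normalized counts or fewer in every library, and its difference of 2.66 was 1.55 with a pseudocount of 16. Its controls were -2.29 apart and its driver groups 0.37.

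In the reverse direction, RHOJ, a small GTPase close to CDC42, fell with VAV1 from 140.5, 155.6 and 128.1 to 28.7, 47.3 and 47.0. With RAC1 P29S it rose from 63.2, 63.0 and 62.8 to 119, 72.6 and 117.6. The lowest RAC1 P29S library lay far below the others yet above all its controls. The effects were -1.79 ± 0.21 and 0.67 ± 0.21, a difference of -2.46 ± 0.30 (limma adjusted p = 3.27e-05). KIAA1755 had effects of -1.50 and 0.96, the matrix protein gene PAPLN -0.85 and 0.76, the tubulin gene TUBB4A -0.72 and 0.88, and the lactase-like gene LCTL -0.83 and 0.74. For these 4 genes the controls were 2.25, 1.32, 2.05 and 1.38 apart, higher in the vehicle experiment, and the driver groups -0.20, -0.30, 0.45 and -0.20. For RHOJ both gaps were of one size, 1.23 and -1.23.

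Among genes where the VAV1 effect passed and the RAC1 P29S effect did not, ASTN1, a membrane protein of neuronal migration, rose from 17.6, 11.7 and 9.10 to 129.5, 174.5 and 153 with VAV1. It stood at 28.2, 36.0 and 20.7 in untreated controls and at 17.8, 16.6 and 25.9 with RAC1 P29S, groups that overlap. FBXL7 (an F-box protein of ubiquitin ligases), P3H2 (a collagen prolyl hydroxylase), ST8SIA1 (the ganglioside GD3 synthase) and EVI2A had VAV1 effects of 3.11, 2.23, 2.20 and 2.28, against RAC1 P29S effects of 0.01, -0.11, -0.03 and 0.43. For FBXL7 and EVI2A the controls were further apart, by -1.68 and -1.17 against 1.42 and 0.69. For ASTN1, P3H2 and ST8SIA1 the driver groups were further apart. On the other side CERS4, a ceramide synthase, fell with VAV1 from 122, 119.5 and 109.4 to 9.78, 22.8 and 9.73. Its untreated controls already stood at 17.4, 29.3 and 31.3, and the RAC1 P29S libraries at 15.1, 18.3 and 18.6. QPRT (an enzyme of NAD synthesis), PPP1R1B (a protein phosphatase inhibitor) and PCDH18 (a protocadherin) had VAV1 effects of -2.08, -2.13 and -1.41. For CERS4, QPRT, PPP1R1B and PCDH18 the 2 controls were 2.24, 2.47, 2.95 and 1.40 apart on the log2 scale, higher in the vehicle experiment, while VAV1 and RAC1 P29S cells were -0.31, 0.12, 0.95 and -0.10 apart.

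Among genes where the RAC1 P29S effect passed and the VAV1 effect did not, NGFR, the neurotrophin receptor p75 that marks neural-crest-like melanoma cells, had the largest difference below 0 that the naming rule admits. With RAC1 P29S it rose from 539.5, 543.7 and 451.2 to 1985, 1949 and 2109 normalized counts. With VAV1 it stood at 1157, 1182 and 1182, against 1132, 978.7 and 1145 in vehicle controls. The effects were 1.98 ± 0.08 and 0.12 ± 0.08, a difference of -1.86 ± 0.11 (limma adjusted p = 9.04e-09). Of the 17 neural crest and Schwann genes tested, NGFR among them, 6 rose and 9 fell with RAC1 P29S (median effect -0.52). With VAV1 5 rose and 8 fell (median -0.54). LTBP2, a matrix protein of the latent TGF-beta binding protein family, rose from 97.0, 133.1 and 98.1 to 364.2, 277.9 and 322.5 with RAC1 P29S. With VAV1 it stood at 102.7 to 180.9, against 108.4 to 169.1 in vehicle controls. COL4A5 (a collagen IV chain), PNMA2 (a neuronal antigen) and F11R (the junctional adhesion molecule A) had RAC1 P29S effects of 1.19, 1.72 and 1.30, against -0.57, -0.03 and -0.33 for VAV1. The difference for PNMA2 was -1.75, and -1.05 with a pseudocount of 16. For NGFR, COL4A5, PNMA2 and F11R the controls were 1.16, 2.06, 3.54 and 1.845 apart on the log2 scale, higher in the vehicle experiment. Their driver groups were -0.70, 0.30, 1.79 and 0.22 apart. For LTBP2 the driver groups were further apart, by -1.26 against 0.36. FLRT2, a cell adhesion protein, fell with RAC1 P29S from 308.5, 286.5 and 285.2 to 89.2, 98.4 and 106.2. In the vehicle experiment it ran from 56.4 to 100.6 without VAV1 and from 72.7 to 128.9 with it. The neutral amino acid transporter SLC1A4, the ectoenzyme BST1, the cysteine-synthesis enzyme CBS and SUSD5 had RAC1 P29S effects of -1.46, -1.25, -0.71 and -0.73, with VAV1 effects between -0.18 and 0.32. For FLRT2, SLC1A4 and SUSD5 the controls were further apart, by -1.86, -0.81 and -1.19 against 0.14, 0.47 and -0.22. For BST1 and CBS the driver groups were further apart, by 0.68 and 2.36 against -0.39 and 1.32.

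**Figure D2:**
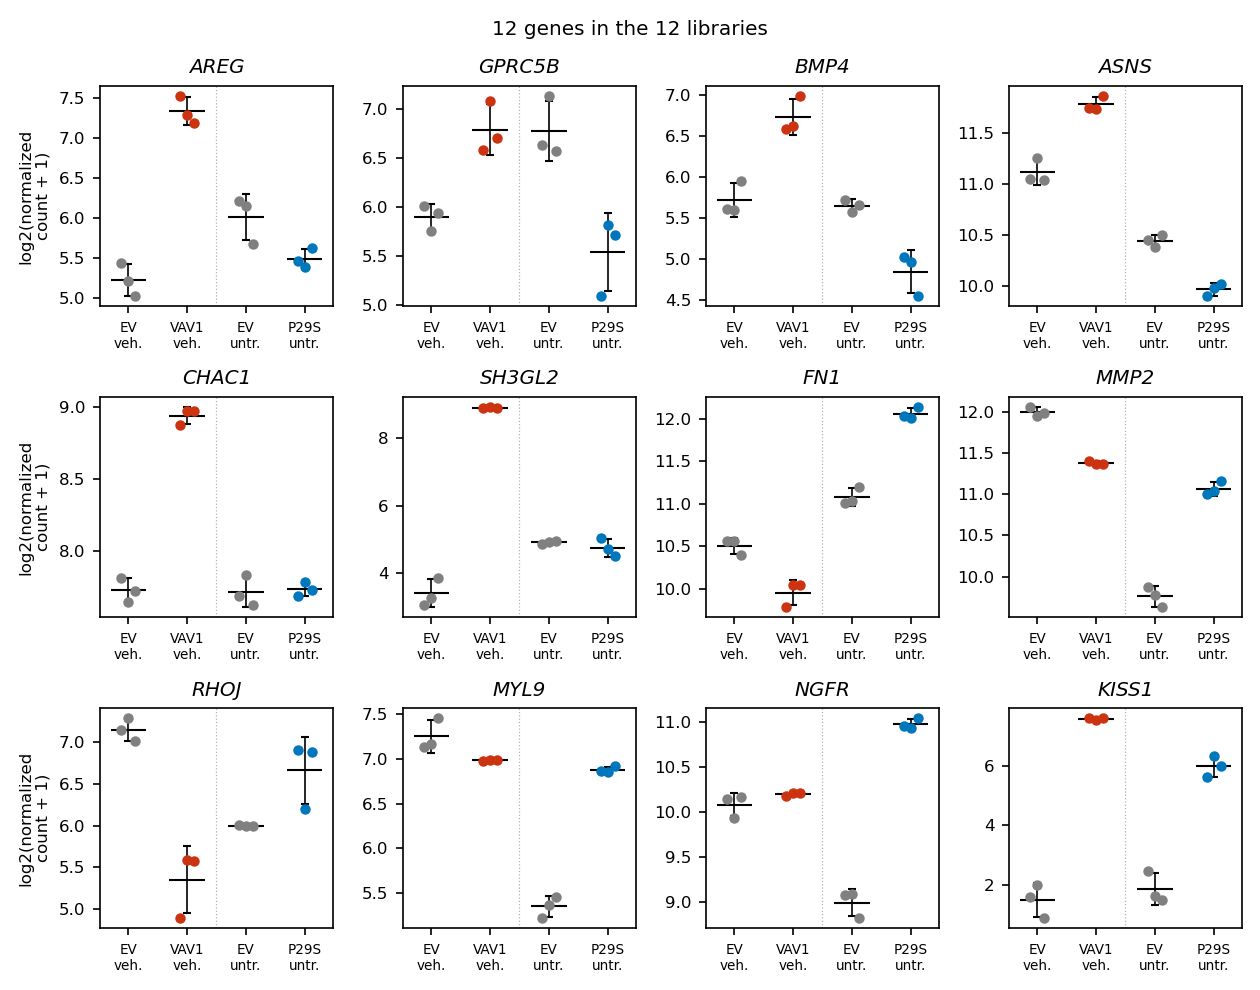
Points are single libraries of 12 genes on the log2(normalized count + 1) scale in the 4 groups, empty vector (EV) and VAV1 with vehicle, then empty vector and RAC1 P29S untreated, and bars are means ± SD (n = 3). AREG, GPRC5B, BMP4 and ASNS are higher with VAV1 and lower with RAC1 P29S, FN1, MMP2 and RHOJ the reverse, MYL9 and NGFR rise with RAC1 P29S from a lower untreated control, and KISS1 rises with both.

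Genes that moved the same way under both drivers by unequal amounts were more often the larger mover under VAV1. LAMA1, a laminin chain of basement membranes, rose from 28.5, 28.5 and 25.1 to 421.1, 445.3 and 459 with VAV1, and from 62.3, 74.3 and 69.4 to 205.8, 173.1 and 176 with RAC1 P29S. The effects were 3.97 ± 0.11 and 1.42 ± 0.11 (difference 2.55 ± 0.16, limma adjusted p = 1.65e-08). SCG5 (a secretory granule chaperone), GFRA1 (a GDNF receptor) and KISS1 (the kisspeptin precursor) had differences of 2.29, 2.19 and 1.98. Control libraries of GFRA1 and KISS1 stood at 8.98 normalized counts or fewer, where the effect depends on the pseudocount. SPANXB1 and GAGE2A, cancer-testis genes with near-identical copies among which reads can be split, had differences of 2.83 and 2.60, which are uncertain for that reason. Toward RAC1 P29S, IL1RL1, the receptor of interleukin 33, rose from 91.6, 79.6 and 65.7 to 948.7, 934.3 and 936.3. With VAV1 it went from 99.0, 95.7 and 121.1 to 289.1, 312.5 and 334.6. SUGCT, a mitochondrial CoA transferase, had effects of 1.09 with VAV1 and 3.11 with RAC1 P29S. IGFBP5 (which binds insulin-like growth factors), HLA-DOA (an MHC class II modulator) and FREM1 (a basement membrane protein) fell with both, with effects of -3.42, -3.49 and -3.32 with VAV1 and -1.50, -1.54 and -1.31 with RAC1 P29S. The controls were further apart than the driver groups for SCG5, SPANXB1, GAGE2A, SUGCT, IGFBP5 and FREM1. The driver groups were further apart for LAMA1, GFRA1, KISS1, IL1RL1 and HLA-DOA.

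The gene lists below were read against all genes tested, of which 8.14% lay above 0 and 7.7% below, with a median difference of 0.01. They were chosen with earlier results of these data known, and no set test was run. Of the 30 tested ATF4 targets, among them enzymes and transporters of amino acid supply, 19 lay above 0 and 1 below, with a median difference of 0.57. With VAV1 25 of the 30 rose and 2 fell (median effect 0.52). With RAC1 P29S 8 rose and 7 fell (median 0.05). ASNS, which makes asparagine, rose from 2109, 2443 and 2104 to 3431, 3416 and 3724 with VAV1 and fell from 1398, 1331 and 1444 to 951.4, 1004 and 1037 with RAC1 P29S. The difference was 1.15 ± 0.09 (limma adjusted p = 2.99e-07). PSAT1, an enzyme of serine synthesis, went from 4070, 4015 and 3826 to 7851, 7313 and 7655 with VAV1 and stayed between 2775 and 2867 with RAC1 P29S, against 2815 to 2972 in its controls. MTHFD2, a mitochondrial enzyme of folate metabolism, had effects of 0.87 and 0.10. CHAC1, which degrades glutathione and was picked with ATF4 and DDIT4 after their values were seen, rose from 224.2, 198.9 and 210 to 468.4, 503.2 and 503.3 with VAV1 and had a RAC1 P29S effect of 0.02. ATF4 itself had effects of 0.44 and -0.13. The member below 0 was DDIT4, an inhibitor of mTOR signalling, with effects of -0.65 and -0.27. For this list the gap between the controls had a median of 0.12 and the gap between VAV1 and RAC1 P29S cells a median of 0.72, and the gap between the controls was the larger for 5 of the 20 members called.

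The promoters of ASNS and CHAC1 are shown because each holds the composite element read by ATF4, searched as TGATGNAA on both strands and in capitals below. ASNS is given from chr7:97872399-97872658 on the minus strand and CHAC1 from chr15:40953221-40953480 on the plus strand, each 5′ to 3′ from 250 bases before to 10 after the RefSeq start (GRCh38.p14).
ASNS: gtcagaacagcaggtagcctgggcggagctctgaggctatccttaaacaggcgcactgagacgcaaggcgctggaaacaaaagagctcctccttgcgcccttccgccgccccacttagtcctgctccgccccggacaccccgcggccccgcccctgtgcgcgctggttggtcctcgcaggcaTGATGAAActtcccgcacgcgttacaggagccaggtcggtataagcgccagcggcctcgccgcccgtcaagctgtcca
CHAC1: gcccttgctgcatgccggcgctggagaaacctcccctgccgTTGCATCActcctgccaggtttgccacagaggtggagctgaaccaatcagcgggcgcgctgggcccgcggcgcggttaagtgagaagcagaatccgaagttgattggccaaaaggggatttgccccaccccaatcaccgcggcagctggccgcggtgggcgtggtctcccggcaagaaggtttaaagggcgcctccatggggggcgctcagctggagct
The match begins 68 bases before the start in ASNS and 209 before it in CHAC1, where it lies on the other strand. Of the 24 list members with a promoter in the reference table, 6 (25.0%) held the motif, against 191 of 10680 promoters of tested genes (1.79%). The 6 were AARS, ASNS, ATF3, CHAC1, SLC3A2 and SLC7A1, and the difference passed for AARS, ASNS and CHAC1. The motif was chosen after the values were seen, and ATF4 targets are partly defined by it.

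Targets of SRF and MRTF, mostly proteins of actin filaments and adhesions, lay the other way. Of 23 tested, 14 lay below 0 and 1 above, with a median difference of -0.33. With RAC1 P29S 20 of the 23 rose and none fell (median effect 0.62). With VAV1 14 rose and 3 fell (median 0.22). MYL9, a regulatory light chain of myosin, rose from 36.1, 40.3 and 42.9 to 115.4, 114.6 and 119.8 with RAC1 P29S. It stood at 139.1, 142.9 and 175 in vehicle controls and at 124.6, 126.1 and 126.2 with VAV1, so that the RAC1 P29S level lay below that of the vehicle controls. The difference was -1.80 ± 0.18 (limma adjusted p = 4.15e-06). VCL, the adhesion protein vinculin, rose under both drivers, by 0.66 ± 0.05 with VAV1 and 1.25 ± 0.05 with RAC1 P29S. CNN2, an actin-binding calponin, had effects of 0.01 and 0.95. The actin genes ACTB and ACTG1 and the actin-bundling TAGLN, picked after their values were seen, had differences of -0.57, -0.76 and -1.86, and TAGLN libraries with RAC1 P29S stood at 477.6 to 493.5 against 130 to 149 with VAV1. The member above 0 was FHL2, a LIM-domain coactivator, at 0.45. The gap between the controls was the larger for 7 of the 15 called, among them MYL9 (1.98 between the controls, 0.18 between the driver groups) and CNN2 (1.11 and 0.18).

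The promoter of CNN2 is shown for its SRF-binding CArG box, in capitals, and covers chr19:1026358-1026617 on the plus strand (GRCh38.p14), from 250 bases before to 10 after the RefSeq start.
CNN2: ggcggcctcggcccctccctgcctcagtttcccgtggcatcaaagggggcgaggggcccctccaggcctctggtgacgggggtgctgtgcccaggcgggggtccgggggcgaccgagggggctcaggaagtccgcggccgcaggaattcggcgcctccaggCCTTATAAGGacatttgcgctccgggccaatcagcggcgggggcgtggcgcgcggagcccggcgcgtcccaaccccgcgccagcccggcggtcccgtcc
The box begins 89 bases before the start. A CArG box was found on either strand in 6 of 21 list members with a promoter in the table (28.6%), ACTG1, CNN2, FHL2, FLNA, SRF and TPM4, against 115 of 10680 (1.08%). SRF targets are partly defined by this box, so the higher share in the list supports no direction. The difference passed below 0 for ACTG1, CNN2, FLNA and TPM4, passed above 0 for FHL2 and did not pass for SRF (0.02). Only 77.3% of the tested genes were matched to a promoter, so a comparison of motifs between the classes of genes is void.

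Matrix and integrin genes gave the largest count below 0. Of 45 tested, 26 lay below 0 and 4 above, with a median difference of -0.38. With VAV1 30 fell and 9 rose (median effect -0.56), and with RAC1 P29S 21 fell and 16 rose (median -0.0049). FN1, fibronectin, fell with VAV1 from 1505, 1516 and 1350 to 880.2, 1052 and 1052 and rose with RAC1 P29S from 2057, 2098 and 2355 to 4196, 4114 and 4505. The difference was -1.53 ± 0.12 (limma adjusted p = 2.19e-07), and the driver groups were further apart than the controls. MMP2, a gelatinase, fell from 4265, 3964 and 4056 to 2706, 2643 and 2632 with VAV1 and rose from 939, 875.1 and 790 to 2044, 2100 and 2280 with RAC1 P29S. Its difference was -1.93 ± 0.08 (limma adjusted p = 2.42e-10). COL5A2, a collagen V chain, went from 4637, 5077 and 5086 to 2921, 3251 and 3030, and from 1930, 1989 and 1946 to 2940, 2964 and 2950. For MMP2 and COL5A2 the 2 controls were 2.32 and 1.41 apart on the log2 scale and the driver groups 0.39 and 0.13. TNC (tenascin C) and ITGB3 (integrin beta 3) fell with both, with effects of -2.72 and -2.70 with VAV1 and -1.44 and -1.66 with RAC1 P29S. Over the list, the gap between the controls was the larger for 17 of the 30 called.

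Outputs of the MAPK pathway, the pathway that mutant BRAF drives, fell with both drivers and more with VAV1. Of 24 tested, 13 lay below 0 and 3 above, with a median difference of -0.29, and 18 fell with VAV1 and 17 with RAC1 P29S (medians -0.56 and -0.34). SPRY2, a feedback inhibitor of receptor signalling, fell from 4547, 4429 and 4541 to 1331, 1226 and 1273 with VAV1 and from 3573, 3684 and 3469 to 2180, 2220 and 2251 with RAC1 P29S (difference -1.13 ± 0.06, limma adjusted p = 2.71e-09). SLC20A1, a phosphate transporter, had effects of -0.90 and -0.08, and EPHA2, an ephrin receptor, rose with both, by 0.76 and 1.51. The 3 members above 0 were DUSP5 and SPRY1, which dampen ERK signalling, and MAFF, a small MAF factor, at 0.85, 0.94 and 0.62. CCND1, cyclin D1, picked after its values were seen, fell by 0.37 with VAV1 and rose by 0.33 with RAC1 P29S. Over the list the median gap was 0.28 between the controls and -0.10 between the driver groups, and it was larger between the controls for 9 of the 16 called.

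Genes of mitosis and of ribosome production differed by small amounts, and for most of those called the gap between the controls was the larger. Of 31 G2 and M phase genes, 19 lay above 0 and none below (median difference 0.23), with 18 higher and none lower with VAV1 and 2 higher and 10 lower with RAC1 P29S. CCNA2, cyclin A2, stood at 1508, 1481 and 1571 in vehicle controls and at 2062, 1964 and 2023 with VAV1, against 2410, 2158 and 2131 in untreated controls and 2091, 2224 and 2072 with RAC1 P29S. Both driver groups and the untreated controls were therefore close, and the vehicle controls lay below them. Over the list the median gap was -0.34 between the controls and -0.05 between the driver groups, and it was larger between the controls for 16 of the 19 called. Of 30 MYC targets and ribosome biogenesis genes, 12 lay above 0 and 1 below (median difference 0.18), and 26 rose with VAV1 and 18 with RAC1 P29S. HSPE1, a mitochondrial chaperonin, had effects of 0.54 and -0.19, and NPM1, nucleophosmin, rose with both, by 0.70 and 0.31. The gap between the controls was the larger for all 13 called. Of 32 S phase genes, 5 lay above 0 and none below, and 8 lay above 0 without the untreated control replicate 3. None of them rose and 7 fell with RAC1 P29S, while 11 rose and 3 fell with VAV1.

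**Figure D3:**
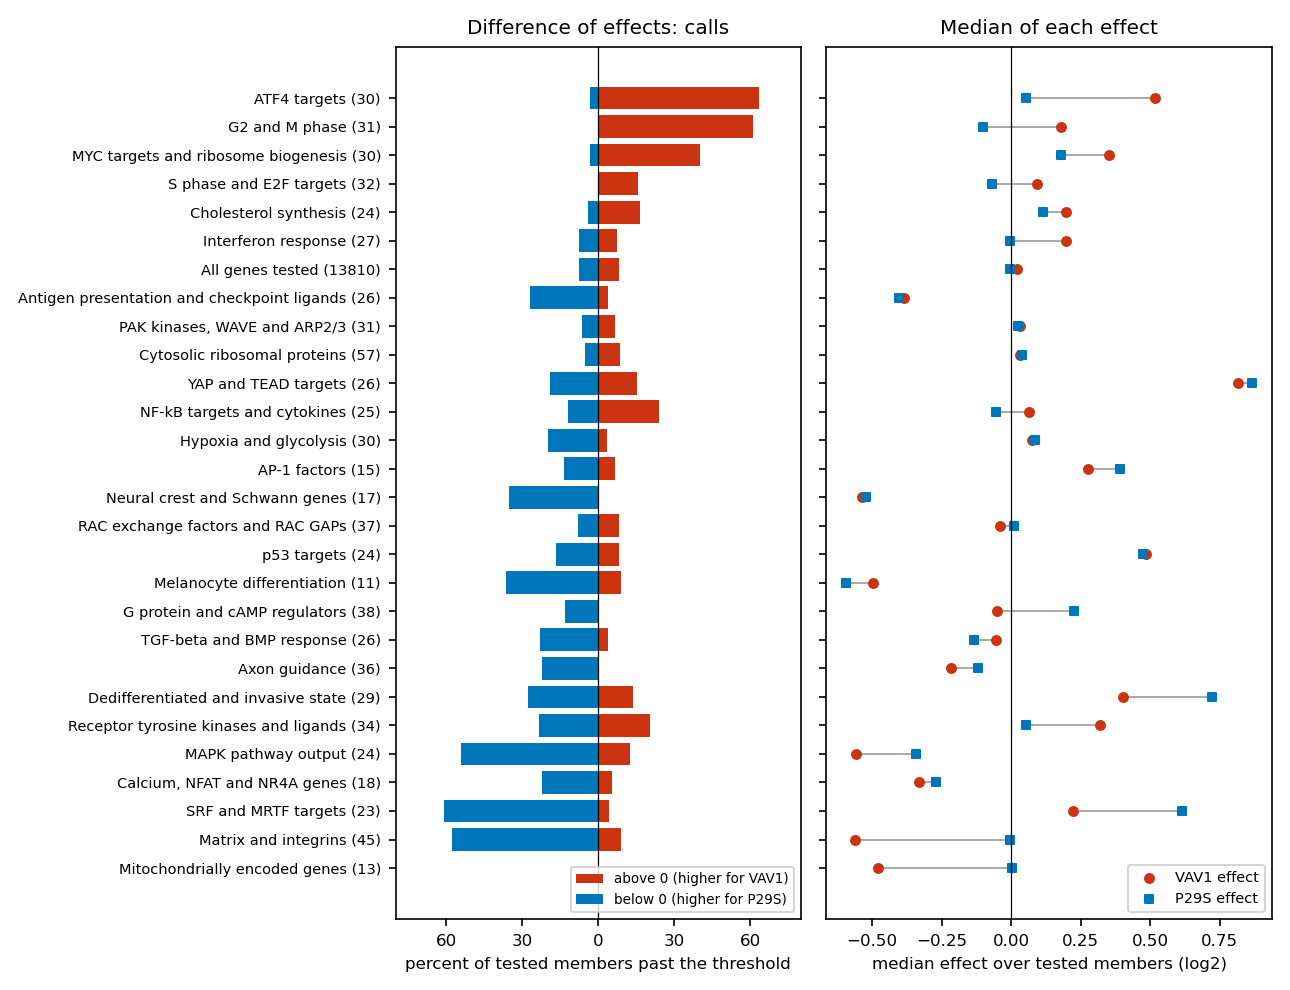
On the left, bars give the percent of the tested members of each list (number in brackets) with a difference above 0 (right) or below 0 (left), beside all genes tested. On the right, points give each list's median VAV1 effect and median RAC1 P29S effect on the log2 scale: ATF4 targets reach 0.52 with VAV1 against 0.05, and matrix and integrin genes -0.56 against -0.0049.

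The share of all genes past the threshold was 15.8%. Of 31 tested PAK kinases, WAVE and ARP2/3 subunits, 2 lay above 0 and 2 below (12.9%), and leaving out 1 library gave as few as 1 above and as many as 4 below. Of 37 exchange factors and GTPase-activating proteins for RAC, 3 lay above and 3 below (16.2%). That count ranged from 0 to 3 above and from 1 to 6 below over the alternatives, with none above without VAV1 replicate 3, 1 below without untreated control replicate 1 and 5 below without untreated control replicate 2. Of 26 YAP and TEAD targets, 18 rose with VAV1 and 20 with RAC1 P29S, and the difference passed for 4 above and 5 below (34.6%), or 3 below without any 1 of 6 libraries. The coagulation initiator F3 was among them, with effects of 2.96 and 1.05.

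Genes of the melanocyte lineage and of antigen presentation mostly fell with both drivers, 6 of 11 and 16 of 26 with each. SOX10, a master factor of the melanocyte lineage, fell from 7726, 7381 and 7459 to 1748, 1837 and 1776 with VAV1 and from 9824, 9540 and 8878 to 4235, 4354 and 4620 with RAC1 P29S (difference -0.98 ± 0.06, limma adjusted p = 2.20e-08). ERBB3, a receptor of neuregulins, and S100B, a calcium-binding marker of the lineage, had differences of -0.98 and -1.16. Of 11 melanocyte genes tested, 4 lay below 0 and 1 above, and 2 rose with VAV1 and 1 with RAC1 P29S. MITF, another transcription factor of the lineage, moved against SOX10. Its mean normalized count went from 370.6 to 1090 with VAV1 and from 325.9 to 769.2 with RAC1 P29S. Of 26 antigen presentation genes, 7 lay below and 1 above, including the MHC class II genes HLA-DRA and HLA-DRB1 and their chaperone CD74 at -0.61, -0.73 and -0.75, although the list's median was 0.01. Of 34 receptor tyrosine kinases and ligands, 8 lay below and 7 above, the latter with AREG, and 4 above without any 1 of vehicle control replicate 2, VAV1 replicate 3, untreated control replicate 2 or RAC1 P29S replicate 1. TGFA, another ligand of the epidermal growth factor receptor, fell with both drivers, with effects of -2.20 with VAV1 and -1.38 with RAC1 P29S. Its difference was -0.82. Of 36 axon guidance genes 8 lay below 0 and none above, and leaving out 1 library brought the 8 down to as few as 3. Of 25 NF-kB targets and cytokines 6 lay above and 3 below (6 below with upper-quartile scaling), with TNFAIP3, an inhibitor of that pathway, at 1.40 ± 0.28. The TNFAIP3 controls were -1.49 apart on the log2 scale and the driver groups -0.09.

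The difference of effects is also the gap between the VAV1 and RAC1 P29S cells minus the gap between the 2 controls. Levels were scaled separately in the experiments, so both gaps were centred on the median of all genes (-0.08 for each before centring). The gap between the controls was the larger for 1454 of the 2188 genes called (66.5%), against 56.8% of the genes not called. The share was 71.7% in the opposite class, 69.2% where the VAV1 effect alone passed, 70.4% where the RAC1 P29S effect alone passed, and 57.7% where both passed with the same sign. Among the called genes the median absolute gap was 0.44 between the controls and 0.25 between the drivers. A shift shared by both groups of an experiment enters both gaps alike. The gaps therefore do not assign a difference to the controls or to the drivers. What set the controls apart was not tested. The mitochondrially encoded genes, a sign of RNA or cell quality, made up 1.66% ± 0.21 (SD, n = 3) of normalized counts in vehicle controls, 1.21% ± 0.19 with VAV1, 1.39% ± 0.17 in untreated controls and 1.37% ± 0.07 with RAC1 P29S. All 13 had differences below 0 (median -0.47), with limma adjusted p from 0.0721 to 0.796. With VAV1 7 of the 13 fell (median effect -0.48), against 20.5% of all genes tested. With RAC1 P29S none of the 13 passed (median effect 0.0038). Their part in the differences was not tested.

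**Figure D4:**
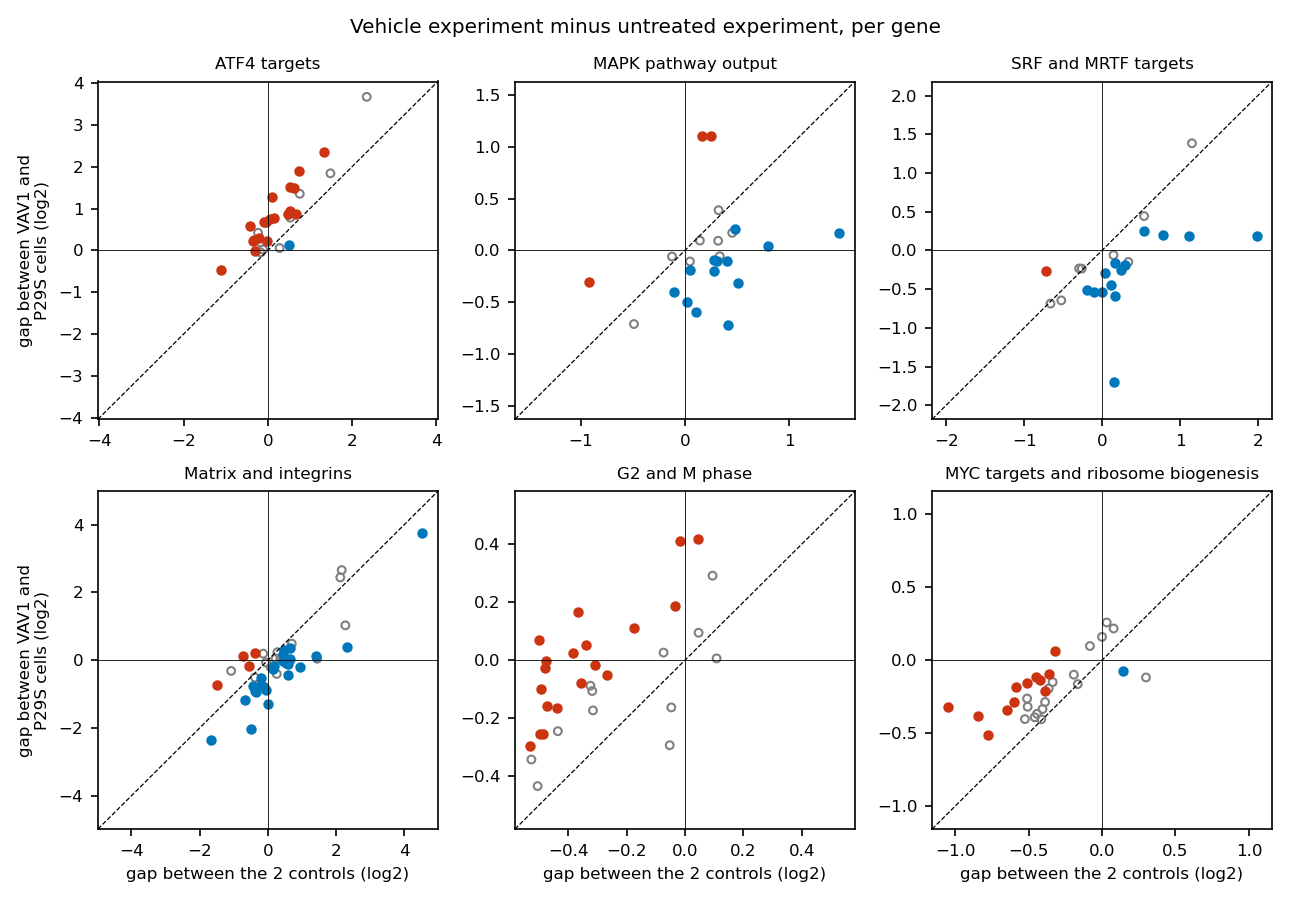
Each point is a tested gene of 1 of 6 lists, with the centred log2 gap between the controls (vehicle minus untreated) on the horizontal axis and that between VAV1 and RAC1 P29S cells on the vertical axis. Red points passed with a difference above 0, blue points with a difference below 0, and open points did not pass. Against the dashed line of equal gaps, ATF4 targets have a median gap of 0.72 between the driver groups and 0.12 between the controls. G2 and M phase genes have medians of -0.05 and -0.34.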

How the data were processed

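RNA was sequenced from A375 cultures with an Illumina TruSeq preparation, per the labels' protocols. The authors deposited a separate table for every library, in which each gene symbol has its normalized count plus 1 on the log2 scale. Tools and build named in the submitters' processing notes are kallisto, DESeq2 and GRCh38, and versions and annotation are not given in the sources used here. The tables were treated as normalized separately in each experiment. No count test was run, and the normalized counts printed here are the log2 values with the log undone.

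Groups came from the titles. limma 3.58.1 in R 4.3.3 was fitted to the 13810 genes with 1 mean per group over all 15 libraries (empirical Bayes with trend, robust, two-sided, Benjamini-Hochberg adjusted p under 0.05). Values after ± are SE for effects. Fold changes are on the log2(value + 1) scale, which understates changes of low genes. The method was tested on simulated data. The gap between groups of different experiments is a description only.

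The comparison, gene lists and named genes were chosen with earlier results of these data known. The naming rule took, in each class, the 6 highest and 6 lowest differences among genes with a mean normalized count of at least 100 in some group and no overlap with the control for each effect that passed, plus up to 3 members per list with the smallest adjusted p. Those not printed here were mostly members of lists with few calls. Also left out were the class genes SLC2A3P1, ADCY1 and NBEAL1, which lost the call in 7 of 22, 6 of 23 and 10 of 23 alternatives. A gene list is not reported here. Genes named outside the rule were picked after their values were seen: ACTB, ACTG1, TAGLN, FHL2, CHAC1, ATF4, DDIT4, DUSP5, SPRY1, CCND1, MITF and the motif holders of each list. Gene coordinates are from GENCODE release 29, and promoters from RefSeq (GRCh38.p14), matched by symbol for 10680 genes (77.3%). Alternatives were other scalings, filters, pseudocounts, fits and thresholds, a replicate block and leaving out each library.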

Additional observations from a re-analysis of the deposited data

Results flagged for a closer look

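Genes listed in only 1 of the experiments could not enter the difference of effects, and some of them carried a signal above their own controls. Of 104 such genes tested in the vehicle experiment alone, 48 rose and 7 fell with VAV1, and 1 of the 55 had a mean above 100 normalized counts, VAV1 itself. Next in size, apart from a gene with a clone name, came the cardiac troponin gene TNNT2, the cytokine IL6 and the SRF coactivator MYOCD, with log2 effects of 5.70 ± 0.36 (SE), 4.84 ± 0.39 and 4.52 ± 0.52 (limma adjusted p = 2.58e-08, 3.10e-07 and 1.20e-05) at means of 93.9, 32.5 and 33.0 normalized counts with VAV1. Their vehicle controls averaged 0.87, 0.19 and 0.48 on the log2 scale, near 0 counts, so these effects depend on the pseudocount. The filter on low genes counted VAV1 cells with and without the SRC inhibitor. A gene near 0 counts in vehicle controls therefore entered only if VAV1 cells reached the filter's threshold. The excess of 48 over 7 was thus partly set by the filter, and no conclusion is drawn from it. Among all genes tested in both experiments, 24.3% rose and 20.5% fell with VAV1. Of 9 genes tested in the untreated experiment alone, 1 rose with RAC1 P29S, CGB5 at 4.18 ± 0.60, and 1 fell. Whether the drivers differ for these genes was not tested.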

How the results depend on the processing

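The number of genes with a difference stayed between 1697 and 2413 under the other scalings, filters, pseudocounts, fits and left-out libraries, and the number with opposite effects between 135 and 196. Leaving out 1 library gave 1697 to 2169 genes for the difference and 135 to 196 for opposite effects. A test against a fold change of 1.5 left 99 genes for the difference, 1074 for VAV1, 845 for RAC1 P29S and 1 with opposite effects, and the median called difference was 0.50 on the log2 scale. Of the called differences 51.4% lay above 0, against 41.1% with upper-quartile scaling and 37.4% in the test against a fold change of 1.5. Same-numbered libraries did not deviate together (residual r -0.03 to 0.02), so numbers do not pair them, and a replicate block gave 1746 genes for the difference, 5839 for VAV1, 4353 for RAC1 P29S and 145 opposite. For the 124 genes of the naming rule, 2711 of 2837 values kept their direction and call, 126 kept their direction and lost the call (78 of them in the test against a fold change of 1.5), and none changed direction. Counts on lists moved within 17 to 20 (ATF4, above 0), 14 to 15 (SRF and MRTF, below), 20 to 27 (matrix, below), 11 to 13 (MAPK, below), 14 to 20 (G2 and M phase, above) and 8 to 14 (MYC, above) in the alternatives other than the test against a fold change of 1.5, which left 2, 1, 5, 3, 0 and 0. The depth in reads is unknown, so no counting interval is given, and with 3 libraries a group the median SE of a difference was 0.15.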

Other observations

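Some of the most unequal genes lay at means below 100 normalized counts in every group and were picked after their values were seen. PLXDC2, a membrane protein with a plexin domain, rose by 2.81 on the log2 scale with VAV1 and fell by 1.61 with RAC1 P29S. ADGRD1, an adhesion G protein-coupled receptor, had effects of -2.19 and 2.37, the calcium-binding S100P -1.86 and 1.91, and STOX2 -1.77 and 1.53. All of these passed limma in the 3 contrasts, with adjusted p of the difference of 2.01e-05 for PLXDC2, 7.52e-04 for ADGRD1, 2.32e-05 for S100P and 0.00276 for STOX2.

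Among the remaining lists, 2 genes lay above 0 and 4 below of 24 p53 targets, of which 16 rose with VAV1 and 18 with RAC1 P29S. Of all genes tested, 8.14% lay above 0 and 7.7% below, and 24.3% rose with VAV1 and 17.3% with RAC1 P29S. The share called was near the 15.8% of all genes for interferon response (14.8%) and cytosolic ribosomal protein genes (14%). Of 24 cholesterol synthesis genes 4 lay above and 1 below, of 27 interferon response genes 2 and 2, of 30 hypoxia and glycolysis genes 1 and 6, of 29 dedifferentiation and invasion genes 4 and 8, of 26 TGF-beta and BMP response genes 1 and 6, of 17 neural crest and Schwann genes 0 and 6, and of 57 cytosolic ribosomal protein genes 5 and 3. Some of these counts rested on single libraries: the 6 hypoxia and glycolysis genes below 0 were 2 without untreated control replicate 3 or RAC1 P29S replicate 3, and 3 without VAV1 replicate 3 or RAC1 P29S replicate 1. The 5 ribosomal protein genes above 0 ranged from 2, without vehicle control replicate 3 or RAC1 P29S replicate 3, to 12 without VAV1 replicate 2.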
